A study of Homo sapiens with 32 samples.

Results

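The genes followed here encode cyclins, kinases and partners of the anaphase-promoting complex (APC/C) that carry a cell into and out of mitosis: CCNA2, CCNB1, CCNB2, CDK1, AURKA, AURKB, PLK1, CDC20, UBE2C and FOXM1. They were chosen by gene symbol among the RefSeq transcripts of the deposited FPKM table, and all 10 were found, of 24242 genes in the table. A gene's value is the mean over the distinct sets of values of its transcripts. All 10 also passed the filter on low values (at least 1 FPKM in at least 3 groups), which kept 22940 genes.

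HUH7 cells, an established human hepatoma line, were labelled with 5-ethynyl uridine (EU), a uridine analogue built into RNA while it is being made, so that captured RNA reports recent transcription. The release groups were held in 2 mM thymidine for 24 h, freed for 2 h, arrested in mitosis with nocodazole at 0.06 ug/mL for 16 h, collected by shake-off and replated. They were labelled with 0.5 mM EU for 40 minutes at 0, 40, 80, 105, 165 or 300 minutes of release. The sources used here do not say whether the stated time opens or closes the pulse. The asynchronous culture received EU with no synchrony step in its label, so synchrony drugs, shake-off and cell cycle stage cannot be told apart in any comparison with it. The labels give 3 samples for each of these 7 groups (they do not say whether spiked asynchronous samples also entered its column), and the deposited table gives 1 authors' value per group. No replicate error therefore stands behind any difference, no test across samples could be run, and differences are described by their size.

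Transcription falls as chromosomes condense in mitosis and resumes as cells enter G1. Entry into mitosis needs the kinase CDK1 bound to cyclin A or B, together with the Aurora and Polo kinases, and exit needs the APC/C, a ubiquitin ligase that marks cyclins for destruction with the help of CDC20 and the conjugating enzyme UBE2C. FOXM1 is a transcription factor that works with the MuvB complex and B-MYB on many of these genes in G2. Their promoters are known for a cell cycle genes homology region (CHR), bound by MuvB, and for CCAAT boxes, bound by NF-Y.

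The 5 promoters that have a single start in the RefSeq table of promoter windows (build GRCh38.p14) are shown. Their genes were lower at 105 than at 80 minutes, and lower again at 165 minutes, as were all 10 genes. Each line gives the 120 bases before the start, 5′ to 3′ on the gene's strand, and capitals mark a CHR (TTTGAA), a CHR variant (TTTAAA or CTTGAA) or a CCAAT box on either strand.
CCNA2, chr4:121823884-121824003, minus strand: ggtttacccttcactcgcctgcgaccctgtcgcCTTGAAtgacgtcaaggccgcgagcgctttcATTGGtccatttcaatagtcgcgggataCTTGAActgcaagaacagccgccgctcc
CCNB1, chr5:69167030-69167149, plus strand: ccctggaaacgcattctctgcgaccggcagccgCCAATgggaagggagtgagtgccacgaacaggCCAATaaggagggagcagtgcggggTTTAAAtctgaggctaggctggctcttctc
CCNB2, chr15:59105026-59105145, plus strand: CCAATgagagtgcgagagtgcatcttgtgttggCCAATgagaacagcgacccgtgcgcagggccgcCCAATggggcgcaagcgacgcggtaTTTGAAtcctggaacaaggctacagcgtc
PLK1, chr16:23678769-23678888, plus strand: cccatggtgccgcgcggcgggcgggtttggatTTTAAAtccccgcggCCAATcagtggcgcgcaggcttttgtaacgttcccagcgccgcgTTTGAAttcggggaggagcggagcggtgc
CDC20, chr1:43358861-43358980, plus strand: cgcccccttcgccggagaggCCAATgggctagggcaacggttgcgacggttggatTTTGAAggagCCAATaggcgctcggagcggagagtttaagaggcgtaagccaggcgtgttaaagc

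Windows of 300 bases, with 250 before and 50 after a start, were found for 7 of the 10 genes: these 5, CDK1 and AURKB. CCAAT was present for all 7, and in 34.6% of the 35116 windows in the table. TTTGAA was present for 4 of the 7 (CCNB2, CDC20, CDK1 and PLK1), and in 15.2% of all windows. Including the variants TTTAAA and CTTGAA, which were added after these windows had been read, CCNB1 and CCNA2 also held a match, so that 6 of the 7 genes did, against 31.2% of all windows. The E2F letters TTTCCCGC and TTTGGCGC were in none of the 7 genes' windows and in 1.63% and 0.652% of all windows. The matches were spread over the windows. Among the nearer ones, the CHR of CCNB2 and of PLK1 began at -29, the TTTAAA of CCNB1 at -30 and the nearer CTTGAA of CCNA2 at -28, where -1 is the last base before the start. A CCAAT box began at -54 in CCNB2, -55 in CCNB1 and CDC20, and -56 in CCNA2, and CCNB2 carried further ones at -87, -120 and -244. Others lay far from the start: the CHRs of CDC20 began at -65 and -178, a TTTAAA of CCNB2 at -193, those of PLK1 at -88 and -148, and the CCAAT box of AURKB at -129 or -153 according to its start. A match is a description of letters in a window and shows no binding.

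**Figure D1:**
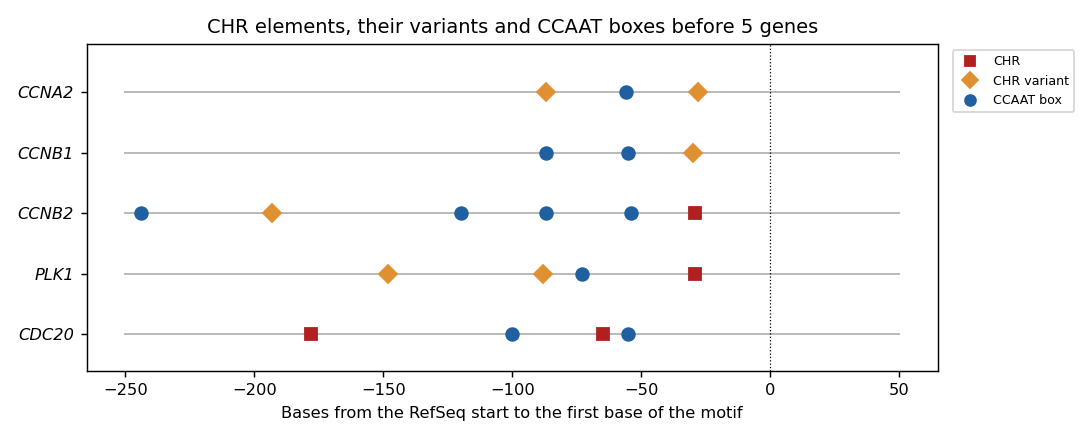
Distance in bases from the RefSeq start (dotted line, 0) to the first base of each CHR (red squares), CHR variant (orange diamonds) and CCAAT box (blue circles), 1 row per gene, over the window from 250 bases before to 50 after the start. In CCNA2, CCNB1, CCNB2 and PLK1 a CHR or variant began 28 to 30 bases before the start.

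Values are the authors' FPKM, a unit meant to scale fragments for feature length and library depth, and folds are ratios of FPKM + 1. The total used in that scaling is not stated. Over all transcripts the values summed to 6241551 FPKM at 0 minutes and 10637475 FPKM at 105 minutes, so the groups do not share a total. Low values repeated in steps that came out whole when multiplied by the full span of the gene, introns included, for 21.1% to 26.7% of low genes in each group. With the length of the spliced transcript 3.96% to 4.98% came out whole, and evenly spread values would give 4%, with whole meaning within 0.02 of an integer. If a step is 1 read, the values of the 10 genes rest on 111 reads (UBE2C at 300 minutes) to 7819 reads (AURKA at 80 minutes), a counting error of 9.51% to 1.13%. This covers counting alone, and the sources used here mention no molecular identifiers. If the scaling total also followed each group's reads, the steps give depths relative to 0 minutes. These were 1.15 at 40, 1.49 at 80, 1.53 at 105, 1.75 at 165 and 1.66 at 300 minutes, and 1.87 in the asynchronous culture. Whether the scaling total did so was not tested. The hepatoma markers, all 8 of 8 present, summed to between 1451 FPKM (80 minutes) and 3841 FPKM (300 minutes) over the release times, against 18906 FPKM in the asynchronous culture. Albumin (ALB) was at 128 FPKM at 0 minutes, 100 at 40 and 662 at 300 minutes, against 2295 FPKM in the asynchronous culture. Alpha-fetoprotein (AFP) was at 133, 101 and 1078 FPKM at the same times, against 3964 FPKM in the asynchronous culture. In such bulk samples fewer cells making an RNA and less of it per cell cannot be told apart. Blood markers (5 of 5 in the table) summed to 119 to 168 FPKM over the release times against 377 FPKM in the asynchronous culture, where LYZ made up 364 FPKM. Of these markers, HBB was at 0 in every group but 40 minutes (3.05 FPKM), and PTPRC was at 1.85 to 4.49 FPKM over the release times and 2.11 FPKM in the asynchronous culture. CD79A, a B cell marker, went against the sum of its list: it was at 27.3 FPKM at 0 minutes, 20.8 at 40, 40.0 at 80, 37.8 at 105, 6.52 at 165 and 5.78 at 300 minutes, and 0.650 in the asynchronous culture. CD3E was at 9.64 to 14.9 FPKM over the release times and 9.78 FPKM in the asynchronous culture. Stroma or endothelium markers (5 of 5 in the table) summed to 63.8 to 131 FPKM over the release times against 51.1 FPKM in the asynchronous culture. The part of these markers in the results was not tested.

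Among the cyclins, the B types stood above their asynchronous level up to 80 minutes and cyclin A2 below it throughout. At 80 minutes the log2 folds of CCNB1 and CCNB2 were 0.32 each, near the median of 0.29 over all genes. CCNB1, whose protein is the main partner of CDK1 at mitotic entry, was at 619.7 FPKM at 0 minutes, 691 at 40, 701 at 80, 464 at 105, 272 at 165 and 171 at 300 minutes, and 561 in the asynchronous culture. The values up to 80 minutes were above the asynchronous value and the later ones below it, with 300 minutes 3.27-fold lower than the asynchronous culture. CCNB2, a second B-type cyclin, was at 167 FPKM at 0 minutes, 175 at 40, 187 at 80, 147 at 105, 129.5 at 165 and 94.7 at 300 minutes, and 149 in the asynchronous culture. It varied least of the 10 genes, its highest release value lying under 2-fold above its lowest, and was the 1 gene under 2-fold below the asynchronous culture at 300 minutes, at 1.57-fold lower. A gene annotated on the same strand overlaps 20.1% of the span of CCNB2, and another on the other strand 2.72%. Neither has values here, and their part in the CCNB2 values was not tested. CCNA2, whose protein acts in S phase and G2, was at 370.0 FPKM at 0 minutes, 376 at 40, 401 at 80, 310 at 105, 177 at 165 and 113 at 300 minutes, and 662 in the asynchronous culture. All 6 release values of CCNA2 lay below the asynchronous one, and the fold at 300 minutes was 5.82-fold lower. The gene EXOSC9 overlaps 7.72% of the span of CCNA2 on the other strand (GENCODE release 29). The library kit keeps strand, but the sources used here do not say whether the counting did, so reads of such pairs cannot be told apart. EXOSC9 was at 249 FPKM at 300 minutes against 119 FPKM at 0 minutes, the opposite direction to CCNA2.

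CDK1, the kinase of these cyclins, was low sooner. It was at 356 FPKM at 0 minutes, 365 at 40, 215 at 80, 132 at 105, 107 at 165 and 141 at 300 minutes, and 607 in the asynchronous culture. At 80 minutes CDK1 was 1.70-fold below its value at 40 minutes, while the 3 cyclin genes had their highest release values there. The cyclin values at 40 and 80 minutes lay within counting error, and relative to the all-gene median the 3 genes were lower at 80 minutes. The 4 transcripts of CDK1 carried 3 distinct sets of values, which differed most in the asynchronous culture. The set of NM_001786 was 2.13-fold lower at 0 minutes (346 FPKM) than in the asynchronous culture (736 FPKM), whereas the set of NM_001170406 was at 359 FPKM at 0 minutes and 540.5 FPKM in the asynchronous culture, under 2-fold lower. The fold of the gene at 0 minutes, 1.70-fold lower, therefore lay on either side of 2-fold according to the transcript.

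**Figure D2:**
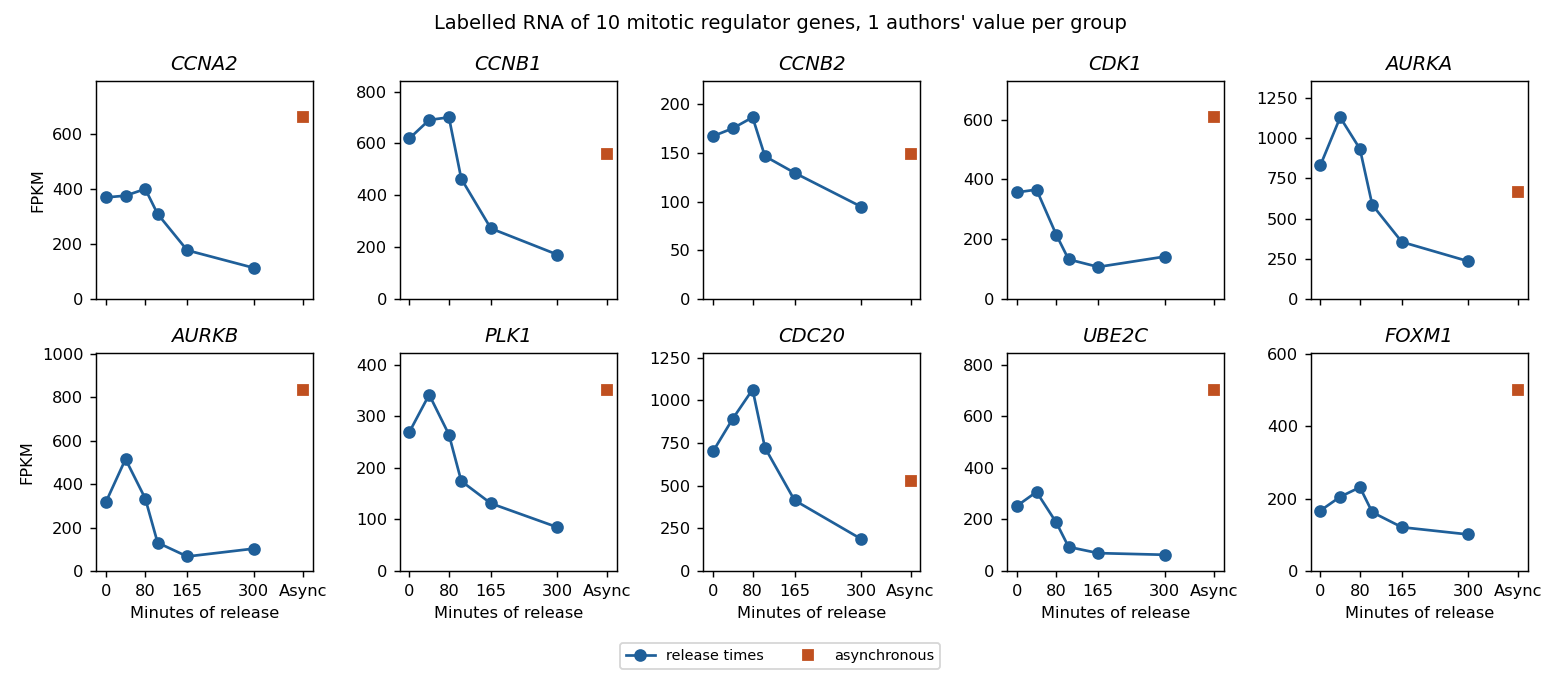
FPKM (linear axis from 0, scaled per gene) against minutes of release for the 10 genes, with the 6 release times as joined blue circles and the asynchronous culture as an orange square. As deposited, every gene had its highest release value at 40 or 80 minutes, and only AURKB and CDK1 were higher at 300 than at 165 minutes.

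AURKA stood above its asynchronous level early in the release and AURKB below it throughout. AURKA, a centrosome and spindle kinase, was at 832 FPKM at 0 minutes, 1130.0 at 40, 933 at 80, 585 at 105, 354 at 165 and 233 at 300 minutes, and 665 in the asynchronous culture. Its values at 0, 40 and 80 minutes were above the asynchronous value, by 1.70-fold at 40 minutes, and at 300 minutes it was 2.84-fold lower. AURKB, the kinase of the chromosomal passenger complex, was at 316 FPKM at 0 minutes, 515 at 40, 333 at 80, 130.4 at 105, 66.7 at 165 and 103 at 300 minutes, and 835 in the asynchronous culture. AURKB stood below the asynchronous culture at every release time and had the widest range of the 10 genes, its highest release value lying 7.61-fold above its lowest. At 165 minutes it was 12.3-fold below the asynchronous culture, where 0.449% of all genes had a lower fold.

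PLK1, the Polo kinase of mitotic entry and spindle assembly, was at 269.9 FPKM at 0 minutes, 342 at 40, 265 at 80, 174 at 105, 131 at 165 and 84.8 at 300 minutes, and 352 in the asynchronous culture. Its value at 40 minutes was 97.2% of the asynchronous one, and at 300 minutes 24.1%. PLK1 lay below the asynchronous culture at every release time as deposited, but above it at 0 and 40 minutes after quantile normalization. On the other strand ERN2 and a gene without values here overlap 0.330% and 5.04% of the span of PLK1.

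The APC/C partners CDC20 and UBE2C differed in their level relative to the asynchronous culture. CDC20, which brings substrates to the APC/C and is held by the spindle checkpoint, was at 702 FPKM at 0 minutes, 894 at 40, 1064 at 80, 723 at 105, 415 at 165 and 188 at 300 minutes, and 526 in the asynchronous culture. It was the 1 gene of the 10 that stood at least 2-fold above the asynchronous culture at any release time, 2.02-fold at 80 minutes, and that fold was under 2 relative to the all-gene median. CDC20 then had the lowest fold of the 10 at 300 against 80 minutes, 5.65-fold lower, with 1.63% of all genes lower still. UBE2C, which starts ubiquitin chains on APC/C substrates, was at 252 FPKM at 0 minutes, 307 at 40, 188 at 80, 93.4 at 105, 69.3 at 165 and 62.9 at 300 minutes, and 704 in the asynchronous culture. No release value of UBE2C was above 43.6% of the asynchronous one, and at 300 minutes it was 11.0-fold lower, with 110 of 22940 genes at a lower fold. Its 8 transcripts carried 2 sets of values, 62.9 FPKM at 300 minutes being the mean of 60.8 and 65.0.

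FOXM1 was the lowest of the 10 relative to the asynchronous culture at 0 minutes. It was at 167 FPKM at 0 minutes, 205 at 40, 231 at 80, 162 at 105, 121 at 165 and 101 at 300 minutes, and 502 in the asynchronous culture. Every release value lay below the asynchronous one, with 300 minutes 4.93-fold lower, but the course was shallow: its highest release value was 2.28-fold above its lowest. The genes ITFG2 and RHNO1 overlap 10.8% and 4.61% of the span of FOXM1 on the other strand. At 300 minutes ITFG2 was at 311 FPKM against 116 FPKM at 0 minutes, and RHNO1 at 99.2 FPKM against 109 FPKM at 0 minutes.

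Ordered by FPKM at 0 minutes, AURKA came first, then CDC20, CCNB1, CCNA2, CDK1, AURKB, PLK1 and UBE2C, with CCNB2 and FOXM1 last. FPKM are meant to be per length, and low values came out whole with the full gene span, introns included. The order is therefore one of deposited values, and the part of introns in it was not tested. CCNB2 and FOXM1, at 167 FPKM each, lay within the 95% interval of their counting error, as did CCNA2 beside CDK1 and PLK1 beside UBE2C. At 300 minutes the order was AURKA, CDC20, CCNB1, CDK1, CCNA2, AURKB, FOXM1, CCNB2, PLK1 and UBE2C. There CDC20 and CCNB1 lay within counting error of each other, as did each neighbour in the run CCNA2, AURKB, FOXM1, CCNB2 and PLK1.

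Against the asynchronous culture, more of the 10 genes were at least 2-fold lower at each release time after 40 minutes, while fewer of all genes were. At 0 minutes 3 of 10 were lower (AURKB, UBE2C and FOXM1), against 19.0% of all genes, and 0 were higher, against 14.1% of all genes. At 40 minutes 2 were lower (15.4% of all genes) and 0 higher (14.2%), and at 80 minutes 4 were lower (10.8%) and 1 higher (19.4%). At 105 minutes 6 were lower (9.29% of all genes), with PLK1 at 2.01-fold just inside the threshold, at 165 minutes 7 (8.81%) and at 300 minutes 9 (8.57%), and 0 were higher at these times (16.7%, 11.4% and 9.84%). The median log2 fold of the 10 genes was -0.58 at 0 minutes, -0.37 at 40, -0.57 at 80, -1.05 at 105, -1.66 at 165 and -2.07 at 300 minutes. Over all genes it was -0.14, 0.01, 0.29, 0.22, 0.12 and 0.11 at the same times. After quantile normalization 1 gene was at least 2-fold lower at 0 minutes and 0 at 40 minutes.

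**Figure D3:**
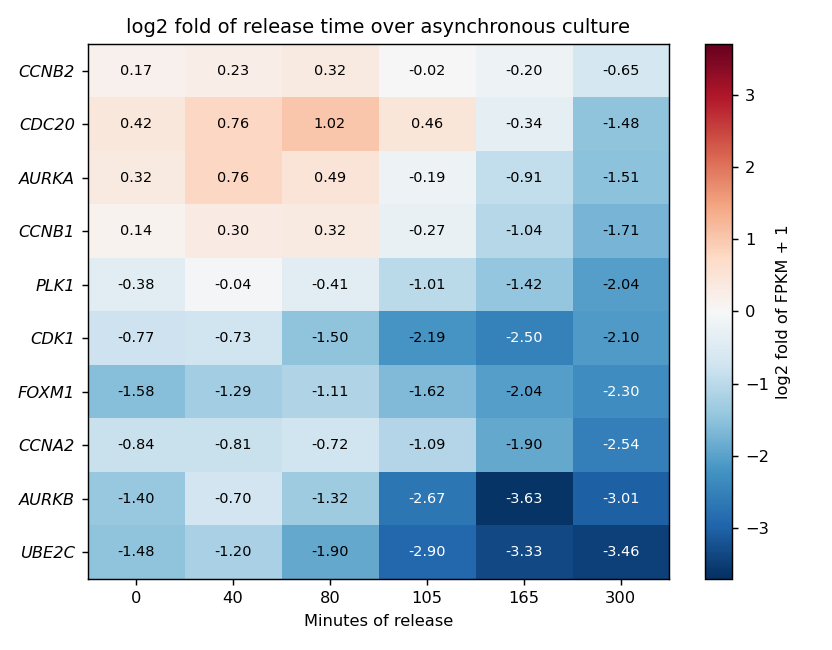
Log2 fold of FPKM + 1 of each release time over the asynchronous culture for the 10 genes (rows, ordered by the fold at 300 minutes) at 6 release times (columns); red is higher and blue lower at the release time. CCNB2, CDC20, AURKA and CCNB1 were above 0 up to 80 minutes, and all 10 genes were below 0 at 165 and 300 minutes.

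The first step separated the 10 genes little. At 40 against 0 minutes 0 of 10 were at least 2-fold higher (3.24% of all genes) and 0 lower (2.05%). AURKB had the largest difference, 1.63-fold higher at 515 FPKM at 40 minutes against 316 FPKM at 0 minutes, and AURKA followed at 1.36-fold higher. All 10 lay above 0 as deposited, but CCNA2, CCNB2 and CDK1 lay below the all-gene median, and after quantile normalization those 3, CCNB1 and CDC20 were below 0.

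At 80 against 40 minutes the genes parted. CDK1, UBE2C and AURKB were 1.70, 1.63 and 1.54-fold lower, AURKA and PLK1 1.21 and 1.29-fold lower, and the other 5 between 1.01 and 1.19-fold higher. None of the 10 passed 2-fold in either direction, whereas 13.5% of all genes passed it upward and 2.72% downward. CDC20 alone of the 10 stood above the all-gene median log2 fold of 0.18, and after quantile normalization all 10 were below 0, with 3 at least 2-fold lower. The 5 genes with their highest release value at 80 minutes (CCNA2, CCNB1, CCNB2, CDC20 and FOXM1) and the 5 with it at 40 minutes compare with 23.1% and 13.8% of all genes at those times. Over both steps, 80 against 0 minutes, 0 of 10 were past 2-fold lower (2.65% of all genes) or higher (20.1%), and CDK1 differed most, at 1.66-fold lower.

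At 105 against 80 minutes all 10 genes were lower, with a median log2 fold of -0.60 against -0.04 over all genes. AURKB was 2.54-fold lower, at 130.4 FPKM at 105 minutes against 333 FPKM at 80 minutes, and UBE2C 2.00-fold lower, at 93.4 FPKM at 105 minutes against 188 FPKM at 80 minutes. These 2 of 10 at least 2-fold lower compare with 2.57% of all genes, with 0 higher (2.02%), and UBE2C sat at the threshold. CCNB2 and CCNA2 differed least, at 1.27 and 1.29-fold lower.

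At 165 against 105 minutes all 10 were again lower, by 1.13-fold (CCNB2) to 1.94-fold (AURKB), with 0 of 10 past 2-fold lower (5.27% of all genes) and 0 higher (2.27%). The median log2 fold was -0.57 for the 10 genes and -0.09 over all genes. AURKB, UBE2C and CDK1 were first at least 2-fold below their highest release value at 105 minutes, CCNA2, CCNB1, AURKA, PLK1 and CDC20 at 165 minutes and FOXM1 at 300 minutes, and CCNB2 did not reach that fold.

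At 300 against 165 minutes the directions divided. CDC20, at 188 FPKM at 300 minutes against 415 FPKM at 165 minutes, was the 1 of 10 past 2-fold lower (4.10% of all genes), and CCNB1, CCNA2, PLK1, AURKA, CCNB2, FOXM1 and UBE2C were 1.10 to 1.59-fold lower. AURKB was 1.53-fold higher, at 103 FPKM at 300 minutes against 66.7 FPKM at 165 minutes, and CDK1 1.32-fold higher, at 141 FPKM at 300 minutes against 107 FPKM at 165 minutes. These folds lay above those of 91.8% and 84.8% of all genes, and both stayed above 0 under each of the scalings tried, deposited, median-centred and quantile-normalized, with 0 past 2-fold (3.04% of all genes higher).

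**Figure D4:**
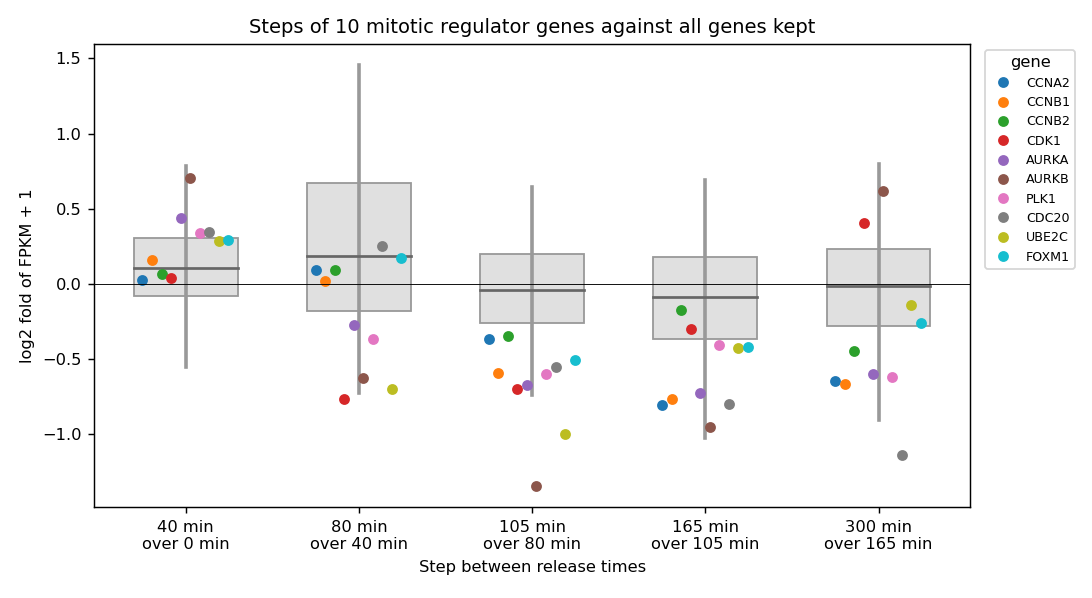
Log2 fold of FPKM + 1 for each step between release times, with the 10 genes as coloured points and all 22940 genes as grey boxes (25th to 75th percentile, line at the median) and grey bars (5th to 95th percentile). All 10 points lie below 0 at 105 over 80 and at 165 over 105 minutes, and CDK1 and AURKB lie above it at 300 over 165 minutes.

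Across the whole release, 300 against 0 minutes, 8 of 10 genes were at least 2-fold lower (8.82% of all genes) and 0 higher (18.9%). UBE2C was 3.96-fold lower, CDC20 3.73-fold, CCNB1 3.62-fold and AURKA 3.55-fold lower, whereas CCNB2 and FOXM1 were 1.76 and 1.65-fold lower. At 300 against 80 minutes 8 of 10 were lower (13.8% of all genes) and 0 higher (8.12%), with CDK1 and CCNB2 under the threshold. The comparisons with 300 minutes share that value and are not independent of each other. All 10 genes had their highest release value by 80 minutes and their lowest at 165 or 300 minutes, an order found in 31.8% of all genes.

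The wider pathway was followed through 8 lists with 92 distinct genes, all of them kept by the filter. At 0 minutes 25 of the 92 were at least 2-fold below the asynchronous culture (19.0% of all genes) and 5 above it (14.1%), at a median log2 fold of -0.64. At 300 minutes 31 were below (8.57% of all genes) and 6 above (9.84%), at -0.56. At 300 against 80 minutes 25 were lower (13.8% of all genes) and 2 higher (8.12%), at a median of -0.56 against -0.18 over all genes. All-gene shares and medians for these comparisons are those given above.

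Core subunits of the APC/C lay closer to the asynchronous culture at 300 than at 0 minutes, as did all genes by their shares past 2-fold. Of 14 subunit genes, 4 were at least 2-fold below the asynchronous culture at 0 minutes (19.0% of all genes) and 1 above it (14.1%). At 300 minutes 0 were below (8.57% of all genes) and 1 above (9.84%). The subunit medians were -0.76 and -0.10, against -0.14 and 0.11 over all genes. ANAPC4, a scaffold subunit, was at 374 FPKM at 300 minutes and 113 FPKM at 0 minutes, against 572 FPKM in the asynchronous culture. ANAPC10, a substrate-binding subunit, was 1.55-fold lower at 300 minutes and 2.70-fold lower at 0 minutes, and the cullin-like ANAPC2 1.41-fold higher at 300 minutes. CDC26, a small stabilising subunit, was at 412 FPKM at 0 minutes, 1317 at 80 and 667 at 300 minutes, and 194 in the asynchronous culture. At 300 against 80 minutes 0 of 14 subunits were at least 2-fold apart (13.8% of all genes lower and 8.12% higher), with a median of 0.05.

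Enzymes and inhibitors around the APC/C were mixed. At 300 minutes 3 of 10 were at least 2-fold below the asynchronous culture (8.57% of all genes) and 1 above it (9.84%). UBE2S, which extends the chains that UBE2C begins, was at 831 FPKM at 0 minutes, 1232 at 80, 269.7 at 165 and 231 at 300 minutes, and 844 in the asynchronous culture, and was 5.30-fold lower at 300 than at 80 minutes. FBXO5, the inhibitor EMI1, was at 354 FPKM at 0 minutes, 737 at 80, 349 at 165 and 535 at 300 minutes, and 1654 in the asynchronous culture. FZR1, the coactivator CDH1 that replaces CDC20 in G1, was at 156 FPKM at 0 minutes, 179.9 at 80 and 122 at 300 minutes, and 114 in the asynchronous culture. MAD2L1BP, which helps to silence the spindle checkpoint, was at 236 FPKM at 300 minutes against 117 FPKM in the asynchronous culture, 2.01-fold higher. MAD1L1, a checkpoint scaffold, was 3.38-fold lower at 0 minutes, and UBE2D1, another conjugating enzyme of the APC/C, 1.10-fold higher at 300 minutes.

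Genes for APC/C substrates had the lowest median of the 8 lists at 300 minutes. Of 18, 7 were at least 2-fold below the asynchronous culture at 0 minutes (19.0% of all genes) and 13 at 300 minutes (8.57%). None stood at least 2-fold above it at either time (14.1% and 9.84% of all genes). The list's medians were -0.84 and -1.30. TOP2A, the mitotic topoisomerase, was at 63.3 FPKM at 300 minutes and 269.6 FPKM at 0 minutes, against 613 FPKM in the asynchronous culture. RRM2, a ribonucleotide reductase subunit of S phase, was 11.5-fold lower than the asynchronous culture at 300 minutes and 6.04-fold lower at 0 minutes. PTTG1, the separase inhibitor securin, and NEK2, a centrosome kinase, were 1.40 and 1.70-fold higher at 0 minutes. GMNN, the licensing inhibitor geminin, was at 1117 FPKM at 300 minutes against 839 FPKM in the asynchronous culture, and SKP2, a subunit of another ubiquitin ligase, at 152 FPKM at 0 minutes against 1349 FPKM in the asynchronous culture.

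Regulators of CDK1 were mixed in direction. Of 13, 2 were at least 2-fold below the asynchronous culture (19.0% of all genes) and 1 above it (14.1%) at 0 minutes. At 80 minutes 2 were below (10.8% of all genes) and 5 above (19.4%), and at 300 minutes 4 below (8.57%) and 1 above (9.84%). CDKN1A, the inhibitor p21, was at 333 FPKM at 0 minutes and 122 FPKM at 300 minutes, against 19.8 FPKM in the asynchronous culture. CKS2, a CDK subunit, was at 2043 FPKM at 0 minutes and 3391 FPKM at 80 minutes, against 1095 FPKM in the asynchronous culture. The activating phosphatase CDC25A was 2.77-fold lower at 0 minutes and 2.35-fold lower at 300 minutes. MNAT1 and CCNH belong to the kinase complex that activates CDK1: MNAT1 was 2.51-fold lower at 0 minutes and CCNH 1.49-fold higher at 300 minutes. The phosphatase gene CDKN3 was 2.17-fold lower at 300 minutes.

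Partners of the Aurora and Polo kinases were lower late in the release. At 0 minutes 4 of 12 were at least 2-fold below the asynchronous culture (19.0% of all genes) and 1 above it (14.1%). At 300 minutes 7 were below (8.57% of all genes) and 1 above (9.84%). INCENP, the scaffold of the passenger complex that holds AURKB, was at 73.6 FPKM at 300 minutes and 154 FPKM at 0 minutes, against 379.8 FPKM in the asynchronous culture. HASPIN, the histone kinase that recruits that complex, was 4.83-fold lower at 300 minutes and 3.29-fold lower at 0 minutes. CEP192, a centrosome scaffold for AURKA and PLK1, was 4.11-fold lower at 0 minutes. PLK2 and PLK3, Polo paralogs with roles outside mitosis, went the other way: PLK2 was at 2678 FPKM at 300 minutes against 963 FPKM in the asynchronous culture, and PLK3 at 289 FPKM at 0 minutes against 98.7 FPKM in the asynchronous culture.

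Greatwall and phosphatase genes lay near the asynchronous culture. Of 11 genes, 1 was more than 2-fold below it at 0 minutes (ARPP19, a phosphatase inhibitor, 2.23-fold) and 1 at 300 minutes (MASTL, the Greatwall kinase, 2.01-fold), and 0 were above it at either time. Over all genes 19.0% and 8.57% were below at these times, and 14.1% and 9.84% above. The phosphatase subunit gene PPP2R2A was at 559.9 FPKM at 300 minutes and 262 FPKM at 0 minutes, against 479.8 FPKM in the asynchronous culture, and the catalytic subunit gene PPP1CA at 545 FPKM at 0 minutes against 476 FPKM in the asynchronous culture. PPP2R2D and PPP2R5C were at 296 and 161 FPKM at 300 minutes against 393 and 130.1 FPKM in the asynchronous culture, and CDC14A was at 52.6 FPKM at 0 minutes against 46.9 FPKM in the asynchronous culture. In the MuvB, DREAM and B-MYB list 3 of 13 were at least 2-fold below and 1 above at 0 minutes, and 4 below and 1 above at 300 minutes, beside the same all-gene shares. MYBL2, which encodes B-MYB, was at 79.3 FPKM at 300 minutes and 149.6 FPKM at 0 minutes, against 306 FPKM in the asynchronous culture, and TFDP1, the E2F partner, was 4.08-fold lower at 300 minutes. RBL1, which encodes p107, was at 63.3 FPKM at 0 minutes against 159.6 FPKM in the asynchronous culture, and RBBP4, a MuvB and chromatin subunit, 1.62-fold higher at 300 minutes. LIN37, a MuvB subunit, was at 263 FPKM at 300 minutes and 213 FPKM at 0 minutes, against 90.5 FPKM in the asynchronous culture. The other A and B type cyclins were low: CCNA1 was at 10.6 FPKM at 0 minutes against 0.210 FPKM in the asynchronous culture, and CCNB3 at 29.9 FPKM against 38.2 FPKM in the asynchronous culture.

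**Figure D5:**
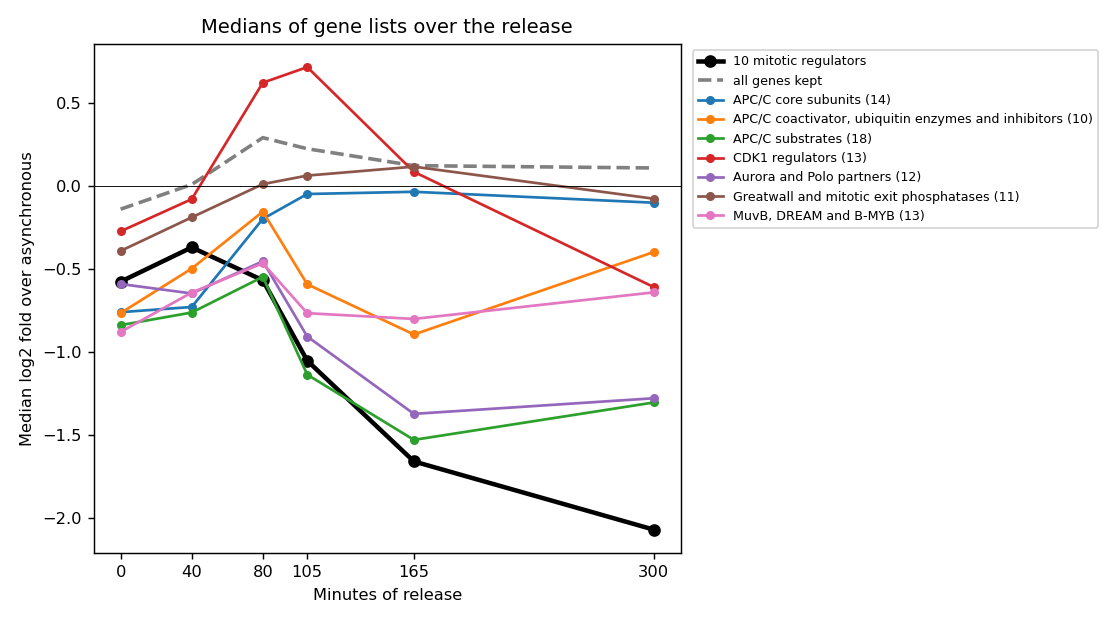
Median log2 fold of FPKM + 1 over the asynchronous culture at each release time for the 10 mitotic regulators (black), all genes kept (dashed grey) and 7 pathway lists, with the number of genes in brackets. At 300 minutes the 10 regulators stood at -2.07, the APC/C substrates at -1.30 and the APC/C core subunits at -0.10.

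The genes most like the mean course of the 10, by Pearson's r of log2(FPKM + 1) over the 7 groups among 11723 other genes with a mean of at least 50 FPKM, were BIRC5 (r = 0.994), CPNE2 (r = 0.993), CDCA8 (r = 0.987), SPAG5 (r = 0.987) and KIF2C (r = 0.986). BIRC5 and CDCA8 encode survivin and borealin of the passenger complex, SPAG5 a spindle protein, KIF2C a microtubule-depolymerising kinesin and CPNE2 a copine. Most like CCNB1 were the spindle midzone gene PRC1 (r = 0.996), the kinetochore gene KNSTRN (r = 0.992) and the hyaluronan receptor gene HMMR (r = 0.991). PRC1 was at 511 FPKM at 0 minutes, 654 at 40, 654 at 80, 429.7 at 105, 248 at 165 and 143 at 300 minutes, and 514 in the asynchronous culture. All these values share the same 7 columns with their depth and scaling, so r is a description.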

How the data were processed

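EU-labelled RNA was biotinylated by click chemistry, pulled down on beads and turned into strand-specific libraries after removal of rRNA, per the labels' protocols. The deposited table holds the authors' FPKM per RefSeq transcript, 1 column for each of 7 groups and none per library. Per the submitters' processing notes the tools included TopHat, Bowtie2 2.2.9, bcl2fastq and bedtools, with build hg19. Counting, scaling total, pooling and background subtraction are stated nowhere in the sources used here. Samples without EU and those with spike-ins were left out, so no background stands beside the values.

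Transcripts were matched by accession to RefSeq symbols of GRCh38.p14 (47127 of 48205, 97.8%). Folds used log2(FPKM + 1), which compresses folds of low genes. Members, lists and the 2-fold threshold were chosen with earlier results of these data known. Tests with limma, planned for values per library, were not possible. Genes named were the 10, up to 2 per list and direction with the largest folds at 0 and 300 minutes (10 FPKM or more in one of the groups), and the most similar genes. Protein sequences were not used here. Python 3.11.15, pandas 2.3.3 and numpy 2.4.6 were used, and the fold calculation was tested on simulated data. Alternatives were other pseudocounts, filters, scalings and transcript choices.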

Additional observations from a re-analysis of the deposited data

How the results depend on the processing

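Across 14 comparisons and both directions, the counts of the 10 genes past 2-fold held within 1.5 times in all 28 cases with a pseudocount of 0.1 FPKM, and in 27 of 28 with a pseudocount of 5 FPKM or with the transcript of the highest mean. Relative to the all-gene median they held in 25, and after quantile normalization in 22. No called fold of the 10 genes changed sign in any of these.

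With quantile normalization, genes at least 2-fold lower were 1 at 0 minutes and 0 at 40 minutes over the asynchronous culture (3 and 2 as deposited), 3 at 80 over 40 minutes, 1 at 105 over 80 minutes and 2 at 80 over 0 minutes, and 0 were higher at 80 minutes over the asynchronous culture. Relative to the all-gene median, 0 were higher at 80 minutes over the asynchronous culture, 1 lower at 105 over 80 minutes and 1 lower at 80 over 0 minutes. A pseudocount of 5 FPKM and the transcript of the highest mean each gave 1 lower at 105 over 80 minutes, where UBE2C sat at the threshold.

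A threshold of 1.5-fold, added after the data were seen, gave 5 lower at 0 minutes, 5 lower and 2 higher at 40 minutes over the asynchronous culture, and 1 higher at 40 over 0 minutes. It gave 3 lower at 80 over 40 minutes, 6 lower at 105 over 80, 5 lower at 165 over 105, 5 lower and 1 higher at 300 over 165, and 1 lower and 1 higher at 80 over 0 minutes. The folds behind these counts were the same as before, and only the threshold differed. Counts over all genes held within 1.5 times in 28 of 28 cases without the filter, 20 with a filter of 10 FPKM and 23 relative to the median.

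No paired analysis was possible because the table holds 1 authors' value per group, and leaving out a replicate was not possible for the same reason.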

Other observations

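At 300 against 165 minutes 48 of the 92 pathway genes were higher, and over all genes 51.6% were lower, so the pathway as a whole was split much as all genes were. Past 2-fold, 2 of the 92 pathway genes were higher, against 3.04% of all genes, and 1 was lower, against 4.10%. These counts are no larger than the all-gene shares would give, and the 3 genes are named here after their values were seen. PKMYT1, an inhibitory kinase of CDK1, was 2.73-fold higher, at 67.2 FPKM at 300 minutes against 24.0 FPKM at 165 minutes, and was at 142.5 FPKM in the asynchronous culture. TFDP2, an E2F partner, was 2.49-fold higher, at 80.6 FPKM at 300 minutes against 31.8 FPKM at 165 minutes, and its value at 300 minutes lay above the 55.3 FPKM of the asynchronous culture. CDKN1A was 3.01-fold lower, at 122 FPKM at 300 minutes against 369 FPKM at 165 minutes. With 1 value per group, whether these differences exceed the spread between libraries is not known.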
